A study of Mus musculus with 6 samples.

Results

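Cirbp and Rbm3 encode the cold-inducible RNA-binding proteins, and their transcripts were followed in muscle from 3 mice labelled wild type (WT) and 3 labelled SIRT6 knockout (KO). SIRT6 is a NAD-dependent deacylase of chromatin. Total RNA of each mouse was hybridized to 1 Affymetrix Mouse Genome 430 2.0 array, and all mice were of the 129SvJ background. The sources used here do not give the age or sex of the mice, which muscle was sampled or how the knockout allele was made. They are 2 of 19324 genes named on the array. A probe set is the array's unit of measurement, several short probes that target 1 transcript, and 3 of the 45037 tested carry Cirbp or Rbm3 among their platform gene symbols. Probe set 1416332_at is named to Cirbp alone. Probe sets 1422660_at and 1429169_at are named to both Rbm3 and Rbm3-ps, so 0 probe sets are named to Rbm3 alone. Rbm3-ps is a pseudogene on chromosome 1, whereas Rbm3 lies on the X chromosome and Cirbp on chromosome 10. The array does not tell Rbm3 from its pseudogene, and both symbols are kept below.

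The pair was chosen because Cirbp was higher in the KO arrays. The differences of all 3 probe sets between WT and KO are therefore given as a description, with no test.

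CIRBP and RBM3 are small glycine-rich proteins with a single RNA recognition motif. Mild cooling of mammalian cells raises both transcripts, and warming lowers them. The proteins bind messenger RNA, where they act on translation, stability and the choice of polyadenylation site, and CIRBP is known to link body temperature rhythms to the circadian clock. In skeletal muscle, RBM3 has been studied in hibernation and in disuse atrophy.

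The promoter of Cirbp is shown because Cirbp is the member with the clearest separation of the groups and because transcription factors of the GC box have been studied there. RefSeq (GRCm38.p6) gives 2 start sites for Cirbp in the promoter table. The window below holds the 250 bases before the first of them, chr10:80167589-80167838 on the plus strand. RefSeq's span of the gene begins upstream of this window. Capitals mark the GC box core (GGGCGG) and the CCAAT box (CCAAT), searched on both strands.

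Cirbp: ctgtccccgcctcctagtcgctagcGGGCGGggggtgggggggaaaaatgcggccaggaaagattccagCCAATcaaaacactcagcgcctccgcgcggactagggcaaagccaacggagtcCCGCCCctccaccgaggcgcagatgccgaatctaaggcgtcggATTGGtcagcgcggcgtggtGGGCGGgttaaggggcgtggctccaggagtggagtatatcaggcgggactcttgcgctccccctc

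The window held 3 GC box cores and 2 CCAAT boxes, none overlapping another. The window before the other start site, of the same length, held 4 GC box cores and 0 CCAAT boxes. At least 1 GC box core was found in 32.7% of 32817 mouse windows of the same length and at least 3 in 8.47%. A CCAAT box was found in 33.8% of windows and at least 2 in 10.1%. The E-box (CACGTG) and the paired heat shock half-sites (GAANNTTC), found in 6.02% and 6.69% of windows, were not in these letters. The G and C content was 65.6%, against a median of 52.4% over all windows.

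Cirbp read low and nearly the same in the WT arrays and higher in every KO array. Its deposited intensities, on a linear scale, were 27.7, 24 and 25.3 in WT replicates 1, 2 and 3. In KO replicates 1, 2 and 3 they were 52.6, 119.2 and 165.6. The groups did not overlap: the lowest KO array stood at 1.9 times the highest WT array. Over all probe sets, every KO array lay above every WT array in 5.02%, a share given as background only.

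The WT mean for Cirbp was 25.7 ± 1.88 and the KO mean 112 ± 56.8 (SD, n = 3 each), a ratio of the readings of 4.38. No background measure comes with the deposited values, so the low WT readings are not shown to be signal and the ratio is not a measured fold of the transcript. Xist, the RNA of the inactive X chromosome, read 24.5 to 31.3 in the same WT arrays at 1436936_s_at. At its other probe sets it read 0.7 to 3.4 and 0.4 to 1.2. These readings differ by probe set and give no floor for Cirbp. The spread lay almost wholly in the KO group, where the highest array read 3.15 times the lowest, against 1.15 times in WT. Relative to the WT mean the KO arrays stood at 2.05, 4.64 and 6.45 times. On the log2(value + 16) scale used for comparisons across probe sets the difference was 1.51, a 2.86-fold change. The added 16 lowers the fold of readings as dim as those of Cirbp in WT. With an offset of 1 the log2 difference was 1.94 and with 64 it was 0.92. Of the 45037 probe sets, 78 had a larger log2 difference toward KO.

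Rbm3 followed in part at the brighter of its 2 probe sets, 1422660_at, which read 274, 147.5 and 184.8 in WT replicates 1, 2 and 3. The KO arrays read 253.7, 466.2 and 451.1. KO replicates 2 and 3 were above all WT arrays, but KO replicate 1 was below WT replicate 1, so the groups overlapped. The means were 202 ± 65.0 and 390 ± 119 (SD, n = 3 each), a ratio of 1.93 and a log2 difference of 0.89. A larger log2 difference toward KO was seen in 426 probe sets.

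The overlap at 1422660_at lies between KO replicate 1 and WT replicate 1, the brightest array of the series. Hybridization controls, which are spiked into each sample, read 1.93 times as high in WT replicate 1 as in WT replicate 2. In the remaining 4 arrays this ratio was 0.97 to 1.01. After quantile normalization the probe set read 232.5, 149.4 and 235.8 in WT and 289, 439 and 403.4 in KO, with no overlap. Centring each array on its median gave 250, 148.3 and 197 against 268, 448.7 and 454.9, again with no overlap. All KO arrays lay above all WT arrays in 8.54% of probe sets after quantile normalization and in 7.17% after centring. Without WT replicate 1 the log2 difference was 1.12, and without WT replicate 2 it was 0.70. The part of array brightness in the overlap was not tested.

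Probe set 1429169_at, the other one named to Rbm3 and Rbm3-ps, was too dim to follow. It read 12.5, 9 and 4.1 in WT and 7.8, 1.9 and 10.3 in KO, below 16 on every array. The means were 8.53 ± 4.22 and 6.67 ± 4.31, and the groups overlapped in full. Its log2 difference was -0.12, and 0.04 without KO replicate 2.

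**Figure D1:**
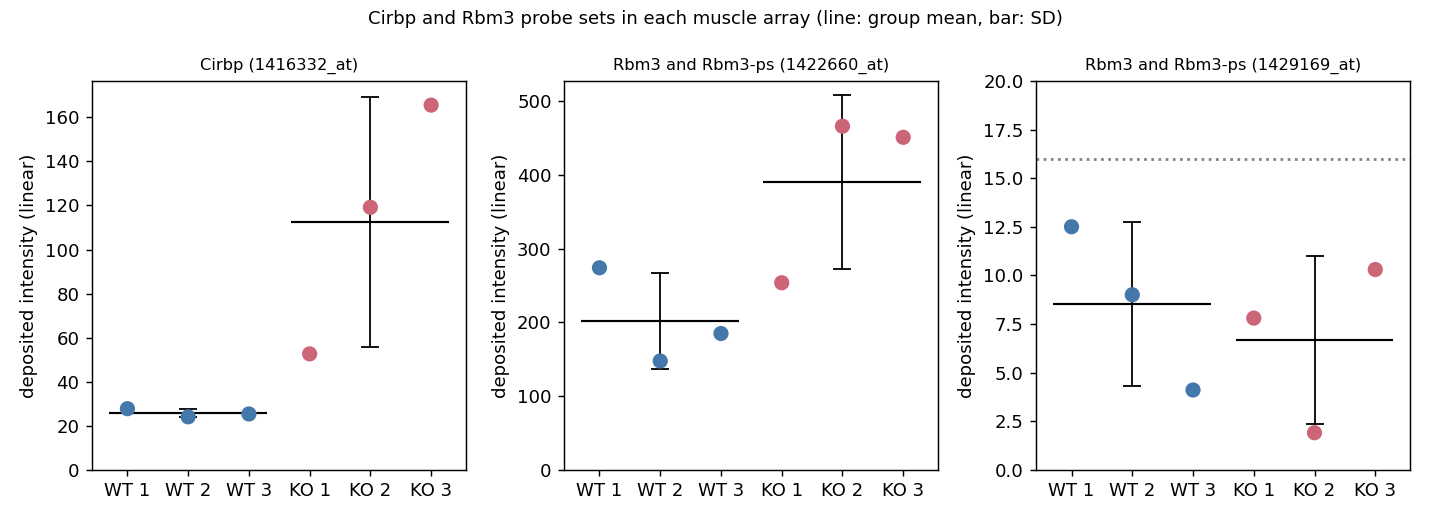
Deposited intensity (linear axis from 0) of the Cirbp probe set and of both probe sets named to Rbm3 and Rbm3-ps in each of the 6 arrays, with points for arrays, a horizontal line for each group mean and a bar for its SD. Cirbp reads 24 to 27.7 in WT and 52.6 to 165.6 in KO, whereas 1422660_at overlaps between WT replicate 1 and KO replicate 1 and 1429169_at stays below 16 (dotted line).

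The KO mice differed among themselves in the same order at Cirbp as at the muscle wasting genes Fbxo32 and Trim63. The ubiquitin ligase gene Fbxo32 read 143.7, 1296.6 and 4078.5 in KO replicates 1, 2 and 3. Trim63, which encodes a ligase of the sarcomere, read 512.1, 1825.4 and 6884.7. Cirbp was likewise lowest in KO replicate 1 and highest in KO replicate 3, while 1422660_at was highest in KO replicate 2. KO replicate 1 was still 2.05 times the WT mean at Cirbp, but at Fbxo32 it was close to WT replicate 1, which read 135.7. Without KO replicate 1 the log2 difference of Cirbp was 1.91 and without KO replicate 3 it was 1.21. The same order of the KO arrays was seen at genes of other lists, such as Rbm5, Hnrnpa1, Clk1 and Sp1, and not at others, such as Ybx1. Its share over all probe sets was not counted. The part of the wasting pattern in the Cirbp values was not tested.

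Differences over the whole array were tested with limma, a linear model per probe set that borrows the spread from all others, with Benjamini-Hochberg adjusted p-values. Over all 45037 probe sets 4 passed an adjusted p of 0.05 (0.00888%), and the 3 probe sets of Cirbp and Rbm3 were not among them. When limma was refitted to the 22515 probe sets above the median level, 77 passed (0.342%). The Cirbp probe set was 1 of these 77 and 1422660_at was not. Since Cirbp was chosen on this contrast, its place among them is no support.

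Genotype could not be told apart from sex. Xist, the RNA that coats the inactive X chromosome, read 24.5 to 31.3 in WT and 715.4 to 1165.7 in KO at 1436936_s_at (log2 change 4.49, adjusted p = 0.00401). At 1427262_at it read 0.7 to 3.4 in WT and 221.7 to 250.9 in KO (log2 change 3.83, adjusted p = 0.00068). At 1427263_at it read 0.4 to 1.2 in WT and 6.1 to 13 in KO (adjusted p = 0.524). Eif2s3y, a Y-linked translation factor gene, read 44.5 to 77.1 in WT and 1.1 to 4.1 in KO (adjusted p = 0.0939). Uty, another Y-linked gene, read 25.1 ± 10.8 and 5 ± 4.25, and Kdm5d, a Y-linked histone demethylase gene, 13.7 ± 2.01 and 4.17 ± 2.97. Of the 6 measured Y-linked genes 4 were lower in every KO array, against 8.34% of all genes, and 0 passed limma's threshold. These genes part the mice exactly as the labels do.

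Because Rbm3 is X-linked, X-linked genes were set beside it. Of 6 genes known to escape X inactivation 6 had higher KO means, with a median log2 change of 0.60 against -0.02 over all 18193 genes. Each KO array was above every WT array for 3 of the 6, against 4.51% of all genes, and 0 passed over all probe sets. Kdm6a, an X-linked histone demethylase gene, read 24.3, 32.3 and 27.4 in WT and 69.1, 92.4 and 120.2 in KO. Among probe sets above the median level it was the 1 member that rose (adjusted p = 0.0335).

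The other 5 escape genes had smaller log2 changes than Kdm6a. Ddx3x, an RNA helicase gene, read 417.5, 290.1 and 247.7 against 373.9, 502 and 707.4. Eif2s3x, the X-linked partner of Eif2s3y, read 454.1, 264.7 and 198.7 against 445.5, 418 and 449.9. At these probe sets, the brightest of each gene, WT replicate 1 lay within or above the KO values, as it did for 1422660_at. At the other 2 probe sets of Eif2s3x every KO array was above every WT array. Kdm5c and Utp14a had log2 changes of 0.39 and 0.64, the latter with 1 of its 2 probe sets in that direction.

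Genes near Rbm3 on the X chromosome had a median log2 change of 0.09 over 16 measured members, 9 higher and 7 lower, with 0 passing. Pim2, a kinase gene, read 32.2 ± 6.21 and 50.8 ± 6.90 and was the 1 member with all KO arrays above all WT arrays, against 4.51% of all genes. Kcnd1, a potassium channel gene named here after its values were seen, was the 1 member with all KO arrays below, against 8.34%, at 26.5, 16.1 and 16.1 in WT and 3.3, 15.6 and 13.1 in KO. Wdr13, the next protein-coding gene to Rbm3 in RefSeq on 1 side, had a log2 change of 0.46, and Hdac6, a deacetylase gene, 0.42. Tbc1d25, the next on the other side, had 0.14. Was and Ebp, the genes beyond Wdr13 and Tbc1d25, had -0.03 and -0.16. Tbc1d25, Was and Ebp are named here after their values were seen. Rbmx, an X-linked RNA-binding protein related to RBM3 in its motif and glycine-rich tail, read 45, 59.1 and 39.5 in WT and 73.3, 46.9 and 45.5 in KO, with overlap. The part of sex in the Rbm3 values cannot be told apart from that of genotype.

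**Figure D2:**
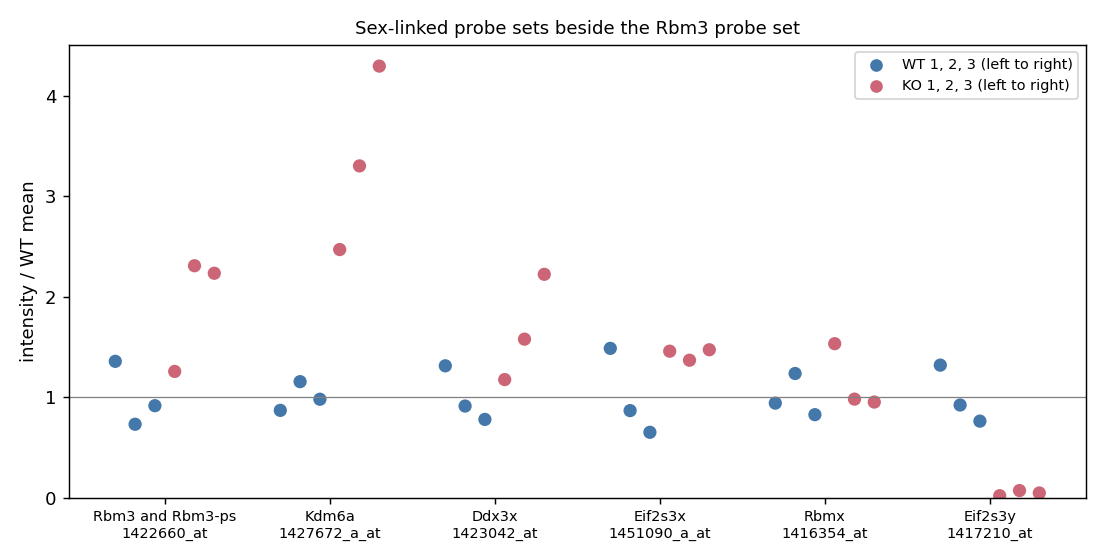
Intensity divided by the WT mean of the same probe set (linear axis from 0) for the Rbm3 probe set 1422660_at, 4 other X-linked genes and the Y-linked Eif2s3y, with 1 point per array. Kdm6a lies above the WT arrays in each KO array, 1422660_at, Ddx3x, Eif2s3x and Rbmx overlap, and Eif2s3y is near 0 in KO.

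The likeness of other genes to each member was measured as the root mean square distance between profiles of log2(value + 16) over the 6 arrays, each centred on its own mean. Over 11512 genes above the median level the 5 nearest to Cirbp were Pim1, Igf1r, Apod, Klhl7 and Idh2, at distances of 0.15 to 0.19, where the median gene lay at 0.87. Pim1, a survival kinase gene, read 37.5, 31.5 and 31.5 in WT and 47.6, 125.3 and 163.8 in KO. Igf1r, the receptor of insulin-like growth factor, read 149.1, 112.8 and 108.2 against 157, 391.7 and 538.6. Idh2, the mitochondrial NADP-dependent isocitrate dehydrogenase gene, read 534.4, 507.8 and 400.4 against 609.6, 1686.7 and 1912.6. In each of these, as in Cirbp, the WT arrays lay close together and KO replicates 2 and 3 far above them. KO replicate 1 stood higher above the WT arrays in Cirbp.

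Rbm3 had another set of near neighbours. Around 1422660_at the 5 nearest of 11513 genes were Serpina3n, Prom1, Sec62, Dctn4 and Trpm7, at distances of 0.14 to 0.19. Sec62, a part of the machinery that moves proteins into the endoplasmic reticulum, read 202.4, 141.1 and 127.6 in WT and 170.9, 289.6 and 317.6 in KO. Trpm7, a cation channel with a kinase domain, read 59.2, 37.2 and 29.4 against 44.2, 92.3 and 101. In both, as in the Rbm3 probe set, WT replicate 1 was above KO replicate 1. Dctn4 went the other way, at 152.1 in WT replicate 1 and 170.4 in KO replicate 1. Serpina3n and Prom1 were dim, at 2.9 to 39 and 5.4 to 31.5 over the arrays, in part below 16. Cirbp and 1422660_at lay 0.42 apart, with 178 genes nearer to Cirbp. The distances draw on the same 6 arrays as the choice of Cirbp and are a description.

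**Figure D3:**
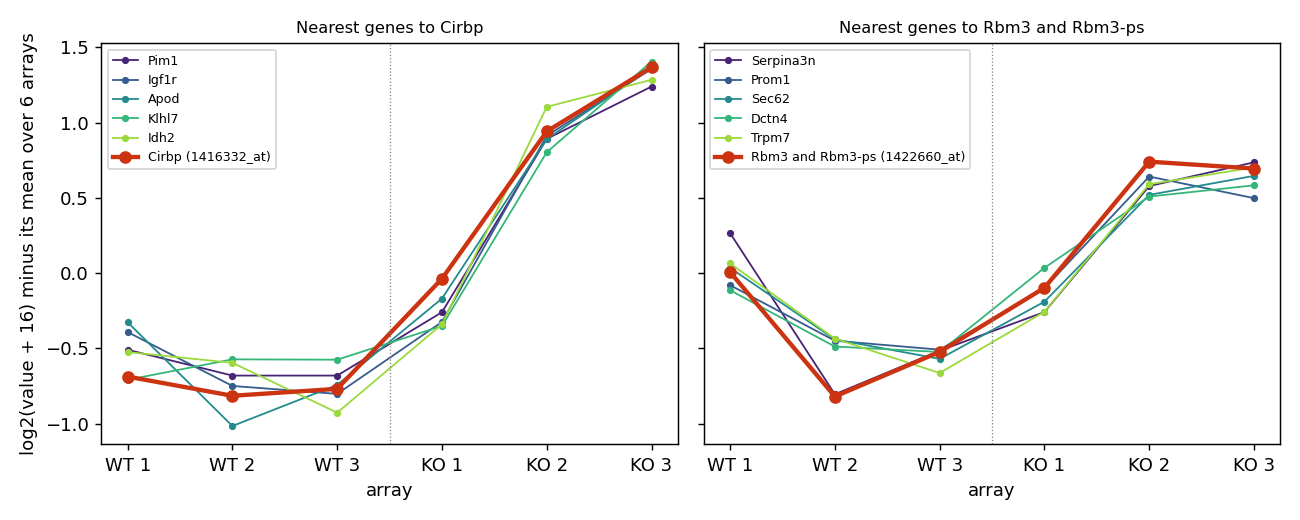
Profiles of log2(value + 16) minus the mean over the 6 arrays for Cirbp (left) and 1422660_at (right) with their 5 nearest genes, where lines only join the values of a gene and arrays of a group have no order. Cirbp and its neighbours are low in all WT arrays and high in KO replicates 2 and 3, whereas 1422660_at and its neighbours are also raised in WT replicate 1 relative to the other WT arrays.

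Counts were then taken over all 14 lists, with 238 measured members, each represented by its brightest probe set. These include the Y-linked, escape and Rbm3 neighbour lists above, which were drawn up by chromosome. By limma 0 of 238 passed over all probe sets, against 1 of 18193 genes (0.0055%), which was Xist. At an unadjusted p under 0.05 there were 19 higher and 17 lower, where the shares over all genes were 3.54% and 6.29%. Escape genes made up 4 of the 19, and Y-linked genes 4 of the 17. All KO arrays lay above all WT arrays for 17 members (7.14%, against 4.51% of all genes) and below for 25 (10.5%, against 8.34%). Of the members above 3 were escape genes, and of those below 4 were Y-linked. Adjusted p-values of the genes below are limma's over all probe sets unless another set is named.

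Among RBM genes, which share the RNA recognition motif, most had slightly higher KO means. Of 40 measured RBM genes 28 had higher KO means and 12 lower, with a median log2 change of 0.11 against -0.02 over all genes, and 0 passed. The groups did not overlap for 2 higher and 2 lower in KO, close to or below the shares of 4.51% and 8.34% over all genes. Rbm5, a splicing regulator, read 208.8, 141.4 and 114.8 in WT and 205.7, 292.8 and 403.1 in KO (log2 change 0.88, adjusted p = 0.552). Rbm39, another splicing factor, read 69.9, 78.8 and 69.2 against 79.1, 190.8 and 250.2 (log2 change 0.97, adjusted p = 0.564). Rbm4b read 6.13 ± 5.07 and 15.4 ± 4.50, below the added 16 on average. Cirbp's log2 difference of 1.51 was above that of each of these 40 genes and that of 1422660_at was above all but Rbm39, and no test of that order was made.

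The hnRNP list, proteins that package nuclear RNA, was even. Of 25 measured genes 14 were higher and 11 lower on average, with a median log2 change of 0.02 and 0 passing. Hnrnpa1 read 106.2, 95.9 and 73.3 in WT and 118.6, 258.3 and 526.2 in KO at 1455305_x_at, a probe set whose suffix marks probes that can bind other transcripts (log2 change 1.34, adjusted p = 0.562). Hnrnpa2b1 read 602.3, 452.6 and 380.9 against 356.1, 252.2 and 295.8, but 1 of its 4 probe sets had that direction. Hnrnpul1 read 179 ± 51.7 and 273 ± 79.3. Hnrnph1, a regulator of Rbm3 splicing, had a log2 change of -0.28, and 0.09 at its other probe set.

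Clk kinases, which phosphorylate SR splicing proteins and act as temperature sensors of splicing, had the 3 lowest p-values of their list. The list of SR proteins and their kinases had 6 of 19 genes higher and 13 lower, a median log2 change of -0.09 and 0 passing. Clk1 read 108.3, 104.9 and 83.1 in WT and 143.5, 220.2 and 386.9 in KO (log2 change 1.12, adjusted p = 0.529). Clk2 had a log2 change of 0.57 and Clk3 of 0.45. Each KO array was above every WT array for 3 of the 19, these Clk genes, against 4.51% of all genes, and below for 1, against 8.34%. That 1 was Srpk3, an SR protein kinase gene named here after its values were seen, at 194.2, 149 and 153 in WT and 139, 117 and 51.6 in KO. Srsf5, an SR protein gene, read 380.5 ± 43.3 and 510.1 ± 106.2.

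Cold shock domain proteins, whose RNA-binding domain is that of bacterial cold shock proteins, lay on both sides. Of 7 measured genes 4 were higher and 3 lower, with a median log2 change of 0.04 and 0 passing. Ybx3, a repressor of translation abundant in muscle, read 2845.9, 2023.7 and 1682.2 against 2326.1, 2891.2 and 4079.8. Ybx1 had a log2 change of 0.18. Ybx2 and Carhsp1 had log2 changes of -0.71 and -0.44, and Lin28b, at -0.27, was below 16 on every array.

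Lists of partners and of upstream factors had medians above 0. Genes for nuclear import and modification of the proteins had 7 of 11 higher, a median log2 change of 0.20 and 0 passing. Tnpo1, the importin that carries CIRBP, had a log2 change of 0.36 at its brightest probe set, and -0.33 and 0.004 at the others. Prmt1, which methylates its arginines, had 0.20. Gsk3b, a kinase of CIRBP, read 253 ± 34.6 and 490 ± 261, Tnpo2 had 0.27 and Tnpo3 0.43. Upstream factors had 7 of 10 higher and a median log2 change of 0.36, with 0 passing. Sp1, which binds GC boxes, read 85.5, 78.3 and 53.3 in WT and 63.1, 139 and 179 in KO (log2 change 0.62, adjusted p = 0.665), and Sp3 read 32.9 ± 6.07 and 50.3 ± 8.58. Smad3 and Smad4, which carry TGF-beta signals, had log2 changes of -1.06 and 0.67.

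Genes of stress granules, where CIRBP gathers, and transcripts that CIRBP or RBM3 have been reported to bind were even. The first list had 11 of 21 higher with a median log2 change of 0.04, and the second 4 of 8 with -0.03. In both 0 passed. Eif2ak2, a kinase that halts translation, had a log2 change of -0.43, G3bp2, a core granule protein gene, -0.40 and Atxn2l 0.52. Among the reported bound transcripts Vegfa had -0.17, Atr 0.16, Tert, below 16 on every array, -0.23 and Clock 0.29. Rtn3, a reported target of RBM3, read 152 ± 44.0 and 150.4 ± 27.1, with a log2 change of 0.01 that turned to -0.04 with quantile normalization, and 0.35 at its other probe set.

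**Figure D4:**
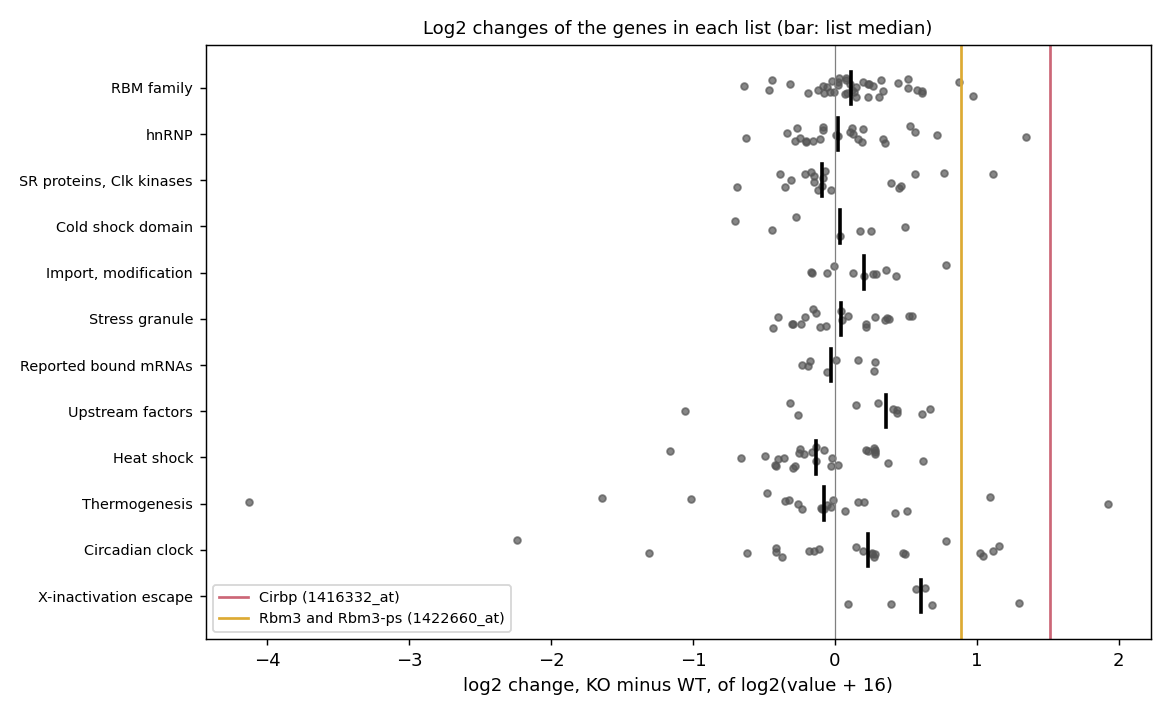
Log2 change (KO minus WT, on the log2(value + 16) scale) of each measured gene in 12 lists, with 1 point per gene and a black bar for the list median. Vertical lines give Cirbp at 1.51 and 1422660_at at 0.89; the highest list median is 0.60, for the X-inactivation escape genes.

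Heat shock genes, which respond to temperature in the direction opposite to Cirbp and Rbm3, were lower on average for 18 of 27 and higher for 9. The median log2 change was -0.13 and 0 passed. Every KO array was below every WT array for 4 (against 8.34% of all genes) and above for 1 (against 4.51%). Hsph1, a heat-induced co-chaperone gene, read 133.1, 94.4 and 79.1 in WT and 77.3, 44.6 and 53.9 in KO (log2 change -0.66, adjusted p = 0.562). Hspb8, a small heat shock protein gene of muscle, read 693 ± 63.1 and 520.1 ± 49.6.

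The HSP70 and HSP40 genes of the list lay on both sides. Hspa1a, an inducible HSP70 gene, read 14.8, 18.1 and 6.7 in WT and 36, 24.3 and 25.6 in KO (log2 change 0.62, adjusted p = 0.537). Its near-identical copy Hspa1b, whose probes may not be told apart from it, had a log2 change of 0.28 at its brightest probe set. At the others, 1427127_x_at and 1427126_at, the log2 changes were 0.72 and 0.66. Among HSP40 genes Dnajb1 had 0.29 at 1 probe set and -0.02 at the other, Dnajb5 -0.42, Dnaja4 -0.29, Dnajb4 -0.02 and Dnaja1 0.03. By brightest probe set the single member above in every KO array was Hspa1a, and 1427127_x_at of Hspa1b was also above in every KO array.

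Thermogenic genes included the largest difference of all lists, that of Ucp1, toward lower values in KO. Of 21 measured genes 14 were lower and 7 higher, with a median log2 change of -0.08 and 0 passing over all probe sets. Ucp1, the uncoupling protein of brown fat, read 877.2, 570.3 and 586.1 in WT and 129.9, 5.9 and 2.3 in KO (log2 change -4.13, adjusted p = 0.436). Cidea, a lipid droplet gene of brown fat, read 565 ± 224 and 164 ± 27.7. Both fell in the test of probe sets above the median level (adjusted p = 0.00242 and 0.0167). Ppargc1b, a coactivator of mitochondrial genes, had a log2 change of -1.01. Sln, the muscle regulator of the calcium pump in non-shivering heat production, read 25.9, 28.8 and 11.8 against 35.9, 757.9 and 54.8 at 1 probe set and below 16 on every array at the other. It was far highest in KO replicate 2, and it was the 1 member of the list with every KO array above every WT array, against 4.51% of all genes. Every KO array was below every WT array for 3 members (Ucp1, Cidea and Ppargc1b), against 8.34% of all genes.

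Clock genes, which CIRBP is known to modulate, differed in both directions. Of 22 measured genes 13 were higher and 9 lower, with a median log2 change of 0.23 and 0 passing over all probe sets. The groups were apart for 3 genes higher in KO and 6 lower, against 4.51% and 8.34% of all genes. Dbp, a clock output factor, read 194.2, 96.6 and 145.6 in WT and 27, 21.6 and 6.4 in KO (log2 change -2.24), and fell in the test of probe sets above the median level (adjusted p = 0.00242). Nr1d1, which encodes the clock repressor REV-ERB alpha, read 238 ± 66.8 and 86.9 ± 29.7 (adjusted p = 0.511). Bhlhe41 had a log2 change of -0.42, and Clock 0.29. The 3 genes apart and higher in KO, named here after their values were seen, were Arntl, Cry1 and Npas2. Their log2 changes were 1.11, 0.48 and 0.27, and Npas2 was below 16 on every array. Per2 had -0.15 at its brightest probe set, and 0.15 and 0.16 at the others. The sources used here do not give the hour of sampling.

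**Figure D5:**
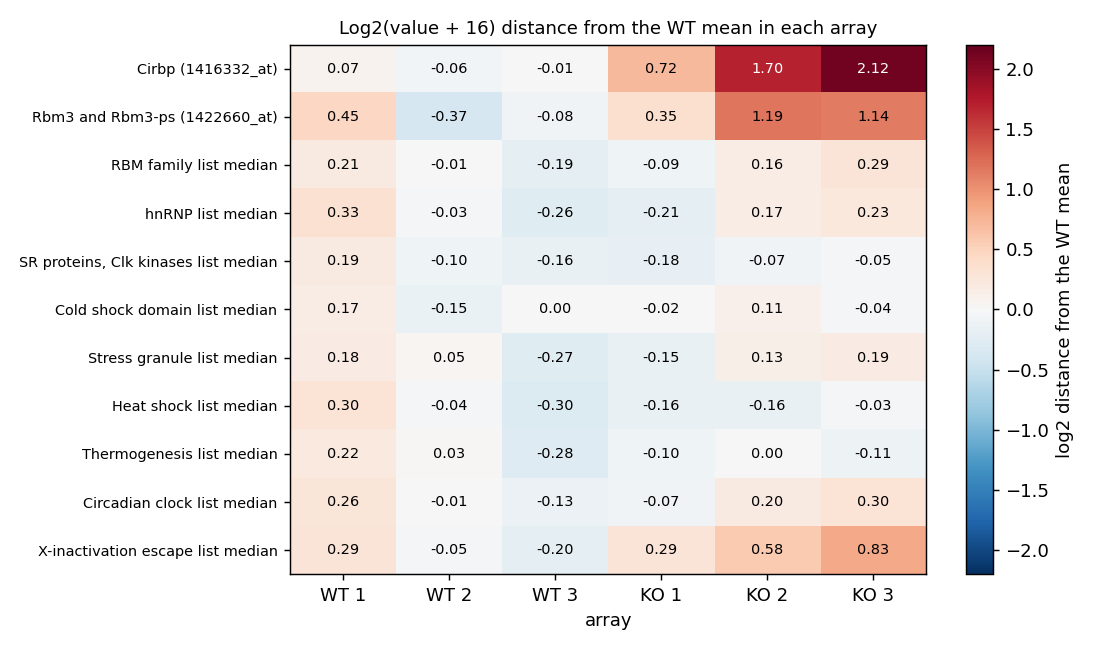
Distance of each array from the WT mean on the log2(value + 16) scale for Cirbp, for 1422660_at and for the median gene of 9 lists, with colour and number giving the same value. Cirbp stands at 0.72, 1.70 and 2.12 in the KO arrays and within 0.07 of 0 in WT. Of the lists shown, the X-inactivation escape list is the 1 with a median above 0.5 in any array. The upstream factor list, not shown, had a median of 0.59 in KO replicate 3.

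The RNA came from whole tissue, so fewer cells of a type and less RNA per cell cannot be told apart. Muscle genes were bright on all arrays: Acta1, skeletal actin, read 9375.7 to 15079.8 and Ckm, muscle creatine kinase, 9226.7 to 16058.6. Adipocyte markers were lower in the group where Cirbp was higher. All 8 measured ones had lower KO means, and 4 of them (against 8.34% of all genes) were lower in every KO array. Their summed intensity was 4045.7 to 7593.2 in WT and 2608.4 to 4252.3 in KO, so the sums overlapped. Fibroblast markers were lower for 7 of 8, and 3 of the 8 (against 8.34% of all genes) were lower in every KO array. Fibroblast sums of 7759.9 to 13582.2 in WT and 3763.1 to 7981.3 in KO also overlapped. None of these markers read 0 on any array, and Ucp1 came nearest, at 2.3.

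The summed levels of 5 further marker lists overlapped between the groups. Endothelial markers summed to 488.7 to 634.6 in WT and 479 to 830.2 in KO, macrophage and immune markers to 350.4 to 544.2 and 287.8 to 483.7. Smooth muscle markers summed to 3056.7 to 4163.8 and 3410.2 to 4176.3, and nerve and Schwann cell markers to 302.1 to 505.5 and 404 to 816.2. Erythroid markers summed to 48.9 to 83.8 and 39.5 to 59.2. Satellite cell markers, of which 2 of 5 reached 16 on average, had higher KO means for 5 of 5, and their sums of 67.7 to 96.1 and 103.2 to 107.2 did not overlap. By gene 1 of the 5 had every KO array above every WT array, against 4.51% of all genes. The median log2 change of these markers was 0.07. The part of any of these cell types in the Cirbp and Rbm3 values was not tested.

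Sirt6 itself does not check the labels. Its probe set was dim, around the added 16, and whether it lies in the deleted part is not known. It read 23.2, 15.1 and 21.3 in WT and 22.6, 18.3 and 13.7 in KO. The ratio of 3' to 5' signal, a sign of RNA quality, was 0.811 to 0.846 for Gapdh and 0.711 to 0.883 for Actb across the arrays. Array medians lay between 10.8 and 15, and 51.7% to 60.3% of probe sets were below 16. The number of arrays limits the precision.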

How the data were processed

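The authors deposited 1 linear intensity per probe set and array, never negative and to 1 decimal. For the software, scaling and background correction, the sources used here name nothing. Total RNA came from a TriPure extraction and carried a biotin label, per the labels' protocols. Of 45101 probe sets 64 controls were left out. Probe sets were named from the platform annotation (34945 with 1 symbol, 932 with several, 9160 not listed) and 34741 matched RefSeq by gene ID. A gene was represented by its probe set with the highest mean. Values entered the fit as log2(value + 16), unscaled, and were fitted with limma 3.58.1 in R 4.3.3, two-sided, with Benjamini-Hochberg adjustment and a threshold of 0.05. The test was checked on simulated data. Hsf1 and Ddx3y are named by no probe set with a single symbol and were not analysed here.

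The members and lists were chosen with earlier results of these data known. Genes named were all probe sets of Cirbp and Rbm3, the 3 lowest p-values of each list, the 5 nearest genes by profile and a fixed set. Alternatives were quantile normalization, median centring, probe sets above the median only, eBayes with trend and robust options, a block for the replicate number, other offsets (1 and 64), a threshold of 0.01, averaging all probe sets per gene, and each array left out. Replicates are labelled as biological, so limma's p-values set the group difference against the spread between biological replicates. Sex parts the groups as the labels do, so no p-value is of genotype alone.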

Additional observations from a re-analysis of the deposited data

How the results depend on the processing

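With 3 arrays a group the number of called probe sets was unstable. Over all probe sets limma called 4, against 9 with quantile normalization, 11 with median centring, 77 with the filter above the median level, 15 with a trended and robust variance, 1 with an offset of 64 and 2 at a threshold of 0.01. With the replicate number as a block it called 0, and with arrays left out 1 to 6. Arrays of the same number did not deviate together (correlations of -0.0046, 0.020 and -0.039). With 3 arrays a group this cannot show whether the numbers pair the mice, and the labels state no pairing. Called members of the lists numbered 0 in the main analysis, 1 with quantile normalization and 1 with median centring (Eif2s3y both times), 5 with the filter (Cidea, Dbp, Eif2s3y, Kdm6a and Ucp1), 3 with the trended variance (Dbp, Eif2s3y and Ucp1) and 0 to 1 with arrays left out, the 1 being Ucp1 without KO replicate 1.

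The log2 difference of Cirbp stayed above 0 in each setting run, from 1.21 to 1.91 with arrays left out and 0.92 with an offset of 64. That of 1422660_at ranged from 0.70 to 1.16 with arrays left out. For 1429169_at it was -0.42 with an offset of 1 and -0.25 to 0.04 with arrays left out. Of 74 named genes 6 changed direction, 2 of them (Ckm at 0.027 and Rtn3 at -0.044) with quantile normalization. With arrays left out Ckm ranged from -0.34 to 0.053, Rtn3 from -0.21 to 0.18, Sirt6 from -0.17 to 0.028, Per2 from -0.34 to 0.0064, Rbmx from -0.027 to 0.27 and Acta1 from -0.32 to 0.012. Xist at 1436936_s_at was not called with the replicate block (adjusted p = 0.209) or an offset of 64 (adjusted p = 0.0667), nor with 1 array left out where that was KO replicate 2, at an adjusted p of 0.0694, or WT replicate 2 or 1, at 0.0978 and 0.106. The cause of these shifts was not tested.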
